A study of Mus musculus with 12 samples.

Results

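The genes described here encode melanin-making enzymes, proteins of the melanosome (the organelle in which melanin is formed) and a cation channel of melanocytes. They are the 10 genes *Tyr*, *Tyrp1*, *Dct*, *Pmel*, *Mlana*, *Slc45a2*, *Slc24a5*, *Oca2*, *Gpr143* and *Trpm1*, taken by name from pigment biology out of 23022 genes listed, by a rule that uses no measured value but was written with earlier results of these data known. RNA-seq was done on 12 libraries of B16-F10 cells, a pigmented melanoma line from a C57BL/6 mouse, with 3 libraries in each of 4 groups. All groups carry Cas9 and derive from 1 clone chosen for its editing. The NTC cells received non-targeting guides (the sample labels write no template control), and the *Mbnl* DKO cells received a guide pair against *Mbnl1* and *Mbnl2*, which encode muscleblind-like splicing factors. Each genotype was sequenced untreated and after IFNγ, given at 1 ng/mL for 24 hours. The DKO cells are a polyclonal pool in which blots still showed some protein, so they are not a line without MBNL.

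Melanin is made from tyrosine. Tyrosinase, the product of *Tyr*, carries out the rate-limiting step, and its relatives TYRP1 and DCT act on later intermediates of the pathway. PMEL forms the fibrils on which melanin is laid down, and SLC45A2, OCA2 and SLC24A5 set the ions and the pH of the compartment. Transcription of most of these genes in melanocytes is driven by MITF, a basic helix-loop-helix factor that binds E boxes. Several of the proteins are also classical melanoma antigens of T cells, among them PMEL (gp100), DCT (TRP-2), TYRP1, tyrosinase and MLANA (MART-1).

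The promoter letters that MITF favors are shown first. They were chosen for that reason, and MITF is known to drive most of these genes. Finding them here is therefore not independent of the choice of genes, and the shares below are a description. RefSeq promoter windows (build GRCm38.p6, 250 bases before to 50 bases after a start site) were at hand for 6 of the 10 genes, in 7 windows. *Pmel*, *Mlana*, *Slc45a2* and *Gpr143* had no entry. The 6 letters CATGTG, searched on both strands, were in 7 of the 7 windows and in 14.2% of all 32851 windows. The longer form TCATGTG, which contains CATGTG and has the leading T that MITF favors, was in 5 of the 7 windows and in 3.77% of all. CACGTG, the other common E box, was in 1 of the 7 windows, the second *Trpm1* window, and in 7.15% of all. Each TCATGTG is printed below with 10 bases on either side, on the strand that reads TCATGTG, with those 7 letters in capitals and the distance of its first base in the gene's own direction from the start site.
*Tyr* at −22 (chr7:87493518-87493544, minus strand): aaaaagttagTCATGTGctttgcagaa
*Tyrp1* at −47 (chr4:80834156-80834182, plus strand): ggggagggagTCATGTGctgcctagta
*Dct* at −151 (chr14:118052381-118052407, minus strand): gcacttagggTCATGTGctaacaaaga
*Dct* at −232 (chr14:118052462-118052488, plus strand): tttattgggcTCATGTGtcccagccaa
*Trpm1* at −142 (chr7:64153683-64153709, plus strand): caaatcctcaTCATGTGcccaccccaa
*Slc24a5* at −13 (chr2:125068104-125068130, minus strand): ttatgctgaaTCATGTGagcagtctcc

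The *Tyr* and *Tyrp1* elements share 11 letters, AGTCATGTGCT, which is the M box known from melanocyte promoters. The run was read from the *Tyr* and *Tyrp1* windows themselves, so its presence in both was fixed in advance. Over all 32851 windows it was in 7, with those 2 among them. *Dct* carries TCATGTG 2 times, once on each strand, and in *Slc24a5* it lies on the strand opposite to the gene. *Oca2* holds CATGTG without the leading T. In GENCODE M21 the *Tyrp1* gene starts upstream of its element, which then lies within the gene. These matches describe letters and do not show binding. The 250 bases before the start site are printed for *Tyr*, the rate-limiting enzyme, for *Dct*, which has a pair of elements, and for *Trpm1*, which stood furthest below NTC in untreated DKO cells, with TCATGTG or its reverse complement in capitals.
*Tyr* (chr7:87493513-87493762, minus strand): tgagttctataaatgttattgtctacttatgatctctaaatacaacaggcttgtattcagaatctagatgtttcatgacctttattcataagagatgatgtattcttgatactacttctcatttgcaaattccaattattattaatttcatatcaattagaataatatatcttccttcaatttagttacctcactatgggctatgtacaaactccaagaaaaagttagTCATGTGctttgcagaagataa
*Dct* (chr14:118052247-118052496, minus strand): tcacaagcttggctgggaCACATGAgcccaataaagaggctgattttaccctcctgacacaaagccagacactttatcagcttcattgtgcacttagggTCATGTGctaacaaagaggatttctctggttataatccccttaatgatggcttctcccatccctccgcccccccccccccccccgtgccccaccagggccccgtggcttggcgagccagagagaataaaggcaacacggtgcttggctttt
*Trpm1* (chr7:64153585-64153834, plus strand): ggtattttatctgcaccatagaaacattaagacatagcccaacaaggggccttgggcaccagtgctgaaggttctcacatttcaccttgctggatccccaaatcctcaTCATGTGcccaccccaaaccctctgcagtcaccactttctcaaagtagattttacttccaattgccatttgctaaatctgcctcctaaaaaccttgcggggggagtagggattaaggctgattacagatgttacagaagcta

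Pigment transcripts were among the most abundant in these cells. In untreated NTC cells, the mean TPM (a share of the library's transcripts, corrected for transcript length) placed *Tyrp1* at rank 8 of all 23022 listed genes, *Dct* at 14, *Pmel* at 19 and *Mlana* at 40. *Slc24a5* (rank 215), *Slc45a2* (226) and *Tyr* (260) followed, and *Trpm1* (2039), *Gpr143* (3029) and *Oca2* (5920) were far lower. The 10 genes together held 17642 ± 523 TPM in untreated NTC cells and 19072 ± 364 TPM in NTC cells with IFNγ (SD, n = 3). In DKO cells they held 11639 ± 191 TPM untreated and 12798 ± 99.7 TPM with IFNγ. This was 2.07% and 2.19% of all listed TPM in NTC cells and 1.42% and 1.56% in DKO cells. The ratio of the sums, DKO over NTC, was 0.660 untreated and 0.671 with IFNγ.

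The order of levels shifted little between genotypes. From high to low in untreated NTC cells it ran *Tyrp1*, *Dct*, *Pmel*, *Mlana*, *Slc24a5*, *Slc45a2*, *Tyr*, *Trpm1*, *Gpr143* and *Oca2*, and only the neighbors *Slc24a5* and *Slc45a2* overlapped in their libraries. In untreated DKO cells *Slc45a2* came before *Slc24a5* and *Gpr143* before *Trpm1*, with *Slc24a5* and *Tyr* overlapping. With IFNγ, NTC cells kept the NTC order with no overlap, and in DKO cells *Pmel* with *Dct*, *Slc24a5* with *Tyr* and *Gpr143* with *Trpm1* overlapped. *Tyrp1* supplied 33.3% of the summed TPM in untreated NTC cells and 33.8% in untreated DKO cells, while the share of *Dct* was 25.2% and 23.1%.

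Facts of the whole series bear on these values. TPM keep no read depth, so precision comes from the spread between libraries, and the labels do not say that replicates are separate cultures, so p-values may measure technical spread only. The listed genes came to at least 844185 TPM in each NTC library but to at most 827191 TPM in each DKO library. Scaled to 1 common total, the DKO over NTC ratio of the pigment sum was 0.683 untreated and 0.713 with IFNγ, and every pigment gene called lower in DKO cells was still called. RNA of the targeted genes was reduced but present in untreated DKO cells, at means of 42.1 against 56.5 TPM for *Mbnl1* (log2 difference −0.41, adjusted p = 2.54e-05) and 89.1 against 102.5 TPM for *Mbnl2* (−0.20, adjusted p = 0.00937), which measures RNA and not protein. Of 8 melanocyte markers, 7 were expressed and *Ednrb* reached at most 0.17 TPM in any library. These markers are not independent of the genes described here, since *Tyr*, *Pmel* and *Mlana* belong to the pigment set and the others to the lineage list below. The 5 keratinocyte markers were at 0 in every library. Summed over 5 genes each, leukocyte markers reached at most 1.69 TPM, with *Ptprc*, *Cd3e* and *Adgre1* at 0, and endothelial markers at most 0.914 TPM. Fibroblast markers summed to 1.63 to 2.70 TPM in NTC cells and to 3.38 to 4.24 TPM in DKO cells, with *Dcn* and *Lum* at 0, and their part in the pigment differences was not tested. In bulk RNA, fewer pigmented cells and less RNA per cell cannot be told apart.

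**Figure D1:**
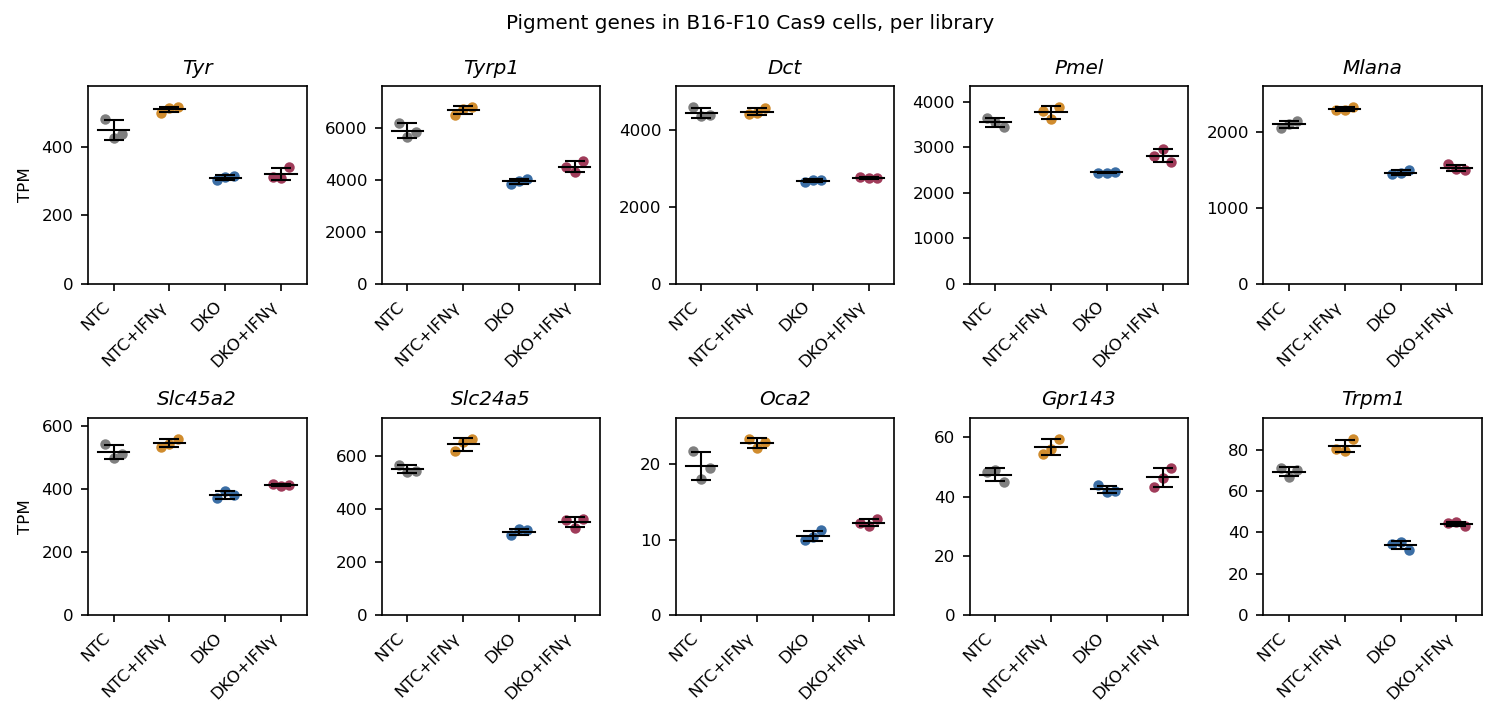
TPM of the 10 pigment genes in every library (points, 3 per group), with the group mean (long bar) and SD (error bar), on a linear axis from 0 for NTC and DKO cells without and with IFNγ. In all 10 panels the DKO libraries lie below the NTC libraries of the same treatment.

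The first comparison was DKO against NTC cells without IFNγ, which sets the edited pool against the control before stimulation. Pigment RNA was lower in DKO cells. Of the 10 genes, 9 fell at an adjusted p-value below 0.05 (limma on log2(TPM + 1), adjusted over all 11663 genes tested), and their mean TPM lay between 26.2% (*Slc45a2*) and 51.2% (*Trpm1*) below NTC. Among all genes tested, 19.4% were called lower and 17.0% higher, and among the 8041 with a mean of at least 10 TPM, where all 10 pigment genes lie, 23.6% were called lower. In 10 of the 10 genes the 2 genotypes did not overlap, all DKO libraries being lower, which held for 26.8% of all genes tested. The median log2 difference was −0.56 over the 10 genes and −0.01 over all genes.

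The enzymes differed in level but all fell. Gene positions here and below are those of GENCODE M21 on GRCm38 (mm10), the build of the study. *Tyr* (chr7:87424771-87493512, minus strand) measured 481, 427 and 438 TPM in the NTC cells against 303, 312 and 315 TPM in the DKO cells. The lowest NTC library was above the highest DKO library, and the log2 difference was −0.53 (SE 0.0484, adjusted p = 3.07e-06). *Tyrp1* (chr4:80834123-80851719, plus strand), whose product stabilizes tyrosinase and acts on a later intermediate, measured 6196, 5624 and 5821 TPM against 3835, 3947 and 4034 TPM. Its log2 difference was −0.58 (SE 0.0442, adjusted p = 6.3e-07). *Dct* (chr14:118012790-118052244, minus strand), the dopachrome tautomerase, measured 4594, 4366 and 4379 TPM against 2648, 2705 and 2711 TPM. Its log2 difference was −0.73 (SE 0.0324, adjusted p = 5.71e-09), with a 95% interval of −0.80 to −0.66 that met that of *Tyrp1* (−0.67 to −0.48) but not that of *Tyr* (−0.63 to −0.43).

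*Pmel* and *Mlana*, which encode melanosomal proteins, fell as well. *Pmel* (chr10:128704195-128720238, plus strand), the fibril protein, measured 3656, 3554 and 3454 TPM in the NTC cells against 2444, 2434 and 2469 TPM in the DKO cells, a log2 difference of −0.54 (SE 0.0417, adjusted p = 7.13e-07). *Mlana* (chr19:29697824-29708634, plus strand), a small melanosomal membrane protein, measured 2059, 2116 and 2153 TPM against 1445, 1464 and 1500 TPM. The log2 difference was −0.52 (SE 0.0331, adjusted p = 1.2e-07). The 5′ end of *Pmel* overlaps *Cdk2* on the opposite strand by 34 of its 2292 exonic bases, and these libraries are unstranded. *Cdk2*, a cell cycle kinase, measured 494 to 503 TPM in NTC cells and 356 to 371 TPM in DKO cells, with a log2 difference of −0.45 (adjusted p = 5.91e-07). At its other end *Pmel* shares 105 exonic bases with *Dgka*, which reached at most 1.41 TPM. The share of reads that falls in these overlaps was not tested.

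Among the transporters the fall was uneven. *Slc24a5* (chr2:125068124-125088677, plus strand), a potassium-dependent sodium/calcium exchanger, measured 567, 538 and 544 TPM in the NTC cells against 302, 323 and 319 TPM in the DKO cells. *Slc45a2* (chr15:11000721-11029233, plus strand), which raises melanosomal pH, measured 543, 499 and 509 TPM against 370, 395 and 380 TPM. The log2 difference was −0.80 for *Slc24a5* (SE 0.0458, adjusted p = 4.61e-08) and −0.44 for *Slc45a2* (SE 0.0395, adjusted p = 2.73e-06), and their 95% intervals, −0.90 to −0.70 and −0.52 to −0.35, did not meet. *Oca2* (chr7:56239760-56536518, plus strand), a chloride channel of the melanosome, was low throughout at 21.7, 18.0 and 19.4 TPM in NTC cells against 9.935, 10.3 and 11.2 TPM in DKO cells. The groups did not overlap, and the log2 difference was −0.85 (SE 0.07, adjusted p = 1.25e-06). *Slc24a5* shares 921 of its 2330 exonic bases with *Myef2*, a gene on the opposite strand that measured 112 to 122 TPM in NTC cells and 89.8 to 93.2 TPM in DKO cells, with a log2 difference of −0.37 (adjusted p = 6.03e-05). Reads in the shared bases cannot be assigned to a strand, and the value of *Slc24a5* is uncertain to that extent.

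The channel and the receptor marked the ends of the range. *Trpm1* (chr7:64153835-64269775, plus strand), a cation channel of melanocytes whose gene hosts the microRNA gene *Mir211*, measured 71.1, 66.8 and 69.9 TPM in the NTC cells against 34.2, 35.6 and 31.7 TPM in the DKO cells. Its log2 difference was −1.01 (SE 0.0505, adjusted p = 1.75e-08), and it ranked 65 from the lowest of 11663. *Gpr143* (chrX:152781921-152808646, plus strand), a G protein-coupled receptor of the melanosome membrane that controls organelle size, measured 48.3, 48.9 and 44.7 TPM against 43.8, 41.7 and 41.8 TPM. The groups did not overlap, but the gap between the lowest NTC and the highest DKO library was narrow. The log2 difference of −0.15 (SE 0.0578, 95% interval −0.28 to −0.03) did not pass the threshold (adjusted p = 0.0517). Fitted on the 6 libraries of this comparison alone it passed (adjusted p = 0.0321), and scaling the libraries to 1 common total gave an adjusted p of 0.177.

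**Figure D2:**
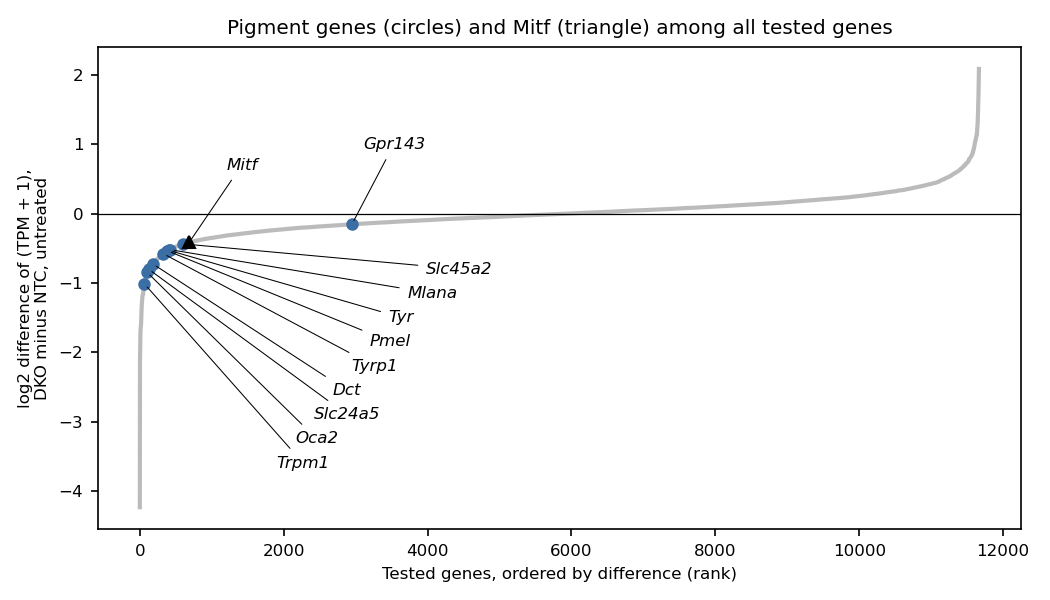
All 11663 tested genes ordered by their log2 difference of TPM + 1, DKO minus NTC without IFNγ (gray line), with the 10 pigment genes as circles and *Mitf* as a triangle. *Trpm1* at −1.01 is lowest of the pigment genes, 9 of them lie at −0.44 or below, and *Gpr143* at −0.15 lies apart.

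With IFNγ, DKO cells were again below NTC cells in the pigment genes, and all 10 fell at the threshold. Among all genes tested 23.9% were called lower and 19.5% higher, and among those with a mean of at least 10 TPM 29.4% were called lower. The libraries of the 2 genotypes did not overlap in 10 of the 10 genes, DKO being lower in each, against 27.2% of all genes tested. The median log2 difference over the 10 genes was −0.63, with −0.01 over all genes. This comparison and the untreated one use different libraries.

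*Tyr* measured 499, 512 and 515 TPM in treated NTC cells against 313, 308 and 339 TPM in treated DKO cells, a log2 difference of −0.67 (adjusted p = 3.42e-07). *Tyrp1* measured 6490, 6705 and 6784 TPM against 4482, 4299 and 4717 TPM, a difference of −0.57 (adjusted p = 6.82e-07). *Dct* measured 4411, 4442 and 4581 TPM against 2778, 2748 and 2743 TPM, a difference of −0.70 (adjusted p = 8.85e-09). Here the intervals of *Dct* (−0.77 to −0.63) and *Tyr* (−0.77 to −0.56) overlapped. All 3 enzymes were lower in each treated DKO library than in any treated NTC library. *Pmel* measured 3808, 3614 and 3884 TPM against 2821, 2965 and 2681 TPM, a difference of −0.42 (adjusted p = 5.54e-06). *Mlana* measured 2294, 2295 and 2333 TPM against 1580, 1519 and 1500 TPM, a difference of −0.59 (adjusted p = 4.05e-08).

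Of the transporters, *Slc24a5* differed by −0.88 under IFNγ (adjusted p = 2.56e-08), from 616, 651 and 664 TPM in treated NTC cells to 360, 330 and 361 TPM in treated DKO cells. *Slc45a2* again had a smaller one, −0.40 (adjusted p = 5.17e-06), from 534, 543 and 559 TPM to 417, 411 and 412 TPM. *Oca2* was at 23.3, 22.1 and 22.8 TPM in NTC cells against 12.2, 11.8 and 12.7 TPM in DKO cells, a difference of −0.84 (adjusted p = 1.18e-06). *Oca2*, *Trpm1* and *Slc24a5* were the genes furthest below NTC, by 46.2%, 45.9% and 45.6% of mean TPM, and the intervals of their log2 differences overlapped. *Trpm1* was at 80.3, 79.5 and 85.2 TPM in NTC cells against 44.5, 44.9 and 43.25 TPM in DKO cells, a difference of −0.87 (adjusted p = 4.97e-08). *Gpr143* was at 54.2, 56.0 and 59.5 TPM and at 43.35, 46.3 and 49.75 TPM, and here its difference of −0.28 passed (adjusted p = 0.00172).

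**Figure D3:**
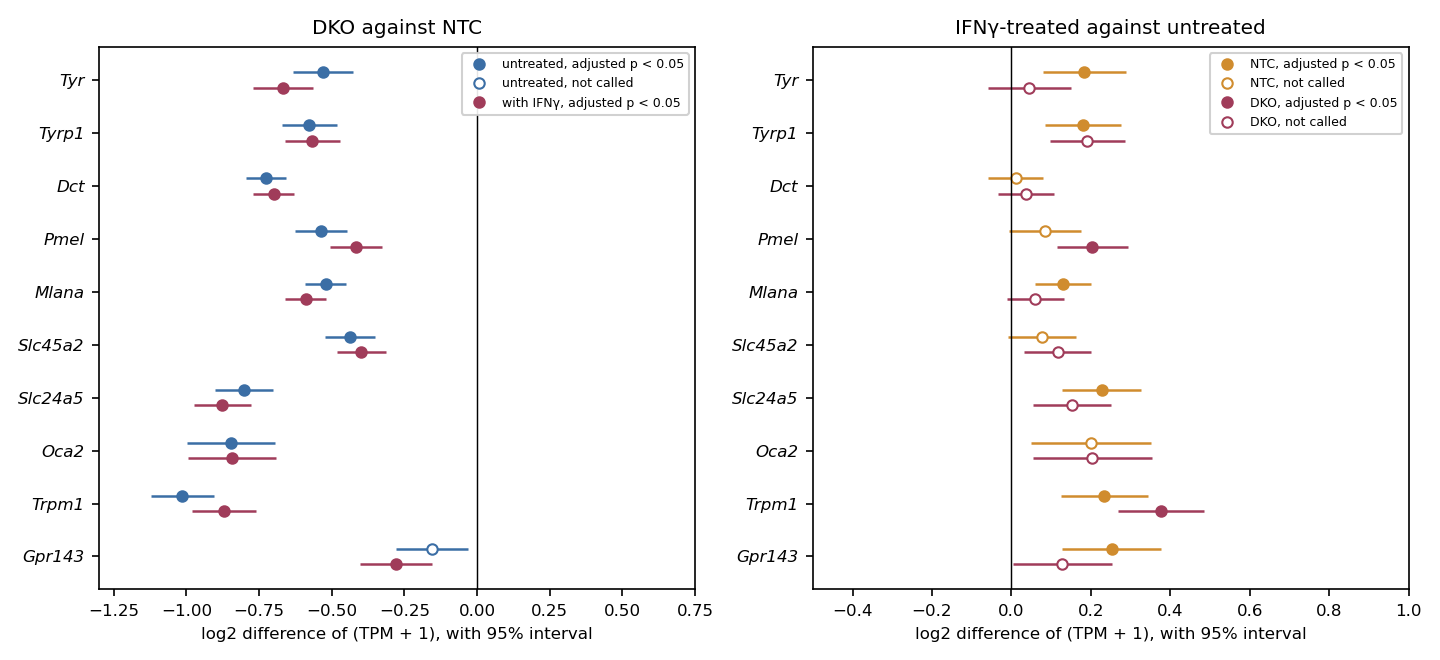
Log2 differences of TPM + 1 for the 10 pigment genes with 95% intervals, for DKO minus NTC (left, untreated and with IFNγ) and for IFNγ-treated minus untreated cells (right, NTC and DKO). Filled circles passed an adjusted p of 0.05, and the DKO differences on the left reach −1.01 while no IFNγ difference on the right is above 0.38.

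IFNγ treatment itself was compared within each genotype, on the same libraries as the comparisons between genotypes. In NTC cells pigment RNA was slightly higher with IFNγ. Of the 10 genes, 6 rose by limma and none had a value below 0, against 7.31% of all genes tested called higher and 4.78% called lower. An unadjusted p below 0.05 was found for 7 of the 10, against 3707 of the 11663. The log2 difference was 0.25 for *Gpr143* (SE 0.0578, adjusted p = 0.0184), 0.23 for *Trpm1* (adjusted p = 0.0152) and 0.23 for *Slc24a5* (adjusted p = 0.0122). *Tyr* and *Tyrp1* rose by 0.18 each (adjusted p = 0.0301 and 0.0234) and *Mlana* by 0.13 (adjusted p = 0.0268). *Oca2* at 0.20 (adjusted p = 0.0736), *Pmel* at 0.08 (0.182), *Slc45a2* at 0.08 (0.199) and *Dct* at 0.01 (0.861) did not pass. Treated libraries were all above untreated ones in 7 genes, against 21.8% of all genes tested. *Dct*, *Pmel* and *Slc45a2* were the genes whose groups overlapped.

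These calls lie near the threshold, and leaving out a library could end them with little change in the differences. Without the third treated NTC library none of the 10 genes passed in the limma fit (adjusted p of 0.0547 or more), and without the third untreated NTC library 1 did, while 2 passed without the second untreated or the second treated NTC library. Over all libraries left out in turn, the difference of *Slc24a5* stayed between 0.20 and 0.26, that of *Gpr143* between 0.21 and 0.28 and that of *Trpm1* between 0.20 and 0.25. Calls over all genes tested also became fewer in these 4 fits, from 1411 to between 317 and 394. The value of *Dct* fell below 0 under 3 of the other settings, to −0.02 with libraries scaled to the same total, −0.01 with median-ratio scaling and −0.10 with a trend in GC content and length removed. With that trend removed, *Tyr* (0.07, adjusted p = 0.285), *Tyrp1* (0.10, 0.0741) and *Mlana* (0.04, 0.548) no longer passed, and *Pmel* did (0.13, 0.0453). *Tyr* has the lowest GC content of the set, 35.2%, and *Pmel* the highest, 53.9%.

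In DKO cells with IFNγ, 2 of the 10 genes rose at the threshold, against 0.677% of all genes tested. An unadjusted p below 0.05 in the limma fit was found for 7 of the 10, as in NTC cells, against 1119 of the 11663. Over all genes 91 were called here and 1411 in NTC cells, so the counts of calls do not compare the size of the 2 responses. *Trpm1* rose by 0.38 on the log2 scale (SE 0.0505, adjusted p = 0.00106) and *Pmel* by 0.20 (SE 0.0417, adjusted p = 0.038). *Trpm1* passed in all 20 other settings, with differences from 0.33 to 0.41. *Pmel* lost its call in 14 of the 20 settings, with adjusted p-values of up to 0.179. The other 8 genes had differences from 0.04 (*Dct*, adjusted p = 0.776) to 0.20 (*Oca2*, 0.336), among them *Tyrp1* at 0.19 (0.0824). Treated libraries were all above untreated ones in 7 genes, against 9.46% of all genes tested, with overlap in *Tyr*, *Mlana* and *Gpr143*.

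Whether the response to IFNγ differed between DKO and NTC cells was tested directly as the difference of the 2 log2 differences. None of the 10 genes passed, against 0.0343% of all genes tested (4 genes by limma), and none had an unadjusted p below 0.05. The values ran from −0.14 for *Tyr* (95% interval −0.29 to 0.01, adjusted p = 0.449) to 0.14 for *Trpm1* (−0.01 to 0.30, adjusted p = 0.451). *Pmel* was at 0.12 (−0.01 to 0.25), *Gpr143* at −0.13 (−0.30 to 0.05) and *Dct* at 0.03 (−0.07 to 0.12). *Tyrp1* at 0.01 (−0.12 to 0.15) and *Oca2* at 0.0032 (−0.21 to 0.22) changed sign when single libraries were left out. The intervals allow a differing response of up to 0.30 in size.

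The other genes of the melanocyte program were taken from a pair of lists. The first holds 16 lineage factors and receptors, of which 13 were tested. In untreated DKO cells 3 were higher and 6 lower, 9 of 13 called against 36.4% of all genes tested, with a median log2 difference of −0.02. *Mitf*, the master regulator named above, measured 249, 226 and 236 TPM in untreated NTC cells against 178, 177 and 176 TPM in untreated DKO cells. With IFNγ it measured 271, 303 and 281 TPM against 192, 200.5 and 199 TPM. DKO libraries were below NTC libraries at both treatments, with log2 differences of −0.42 (adjusted p = 1.71e-05) and −0.53 (adjusted p = 2.14e-06), and *Mitf* rose with IFNγ in NTC cells by 0.27 (adjusted p = 0.00579). TPM of a gene do not separate its isoforms, and the melanocyte isoform of *Mitf* was not measured here on its own.

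Receptor genes of the lineage moved in both directions. *Kit*, the receptor of stem cell factor, was low at 3.35 to 3.94 TPM in untreated NTC cells and 0.425 to 0.574 TPM in untreated DKO cells, and differed by −1.63 on the log2(TPM + 1) scale (adjusted p = 1.29e-07). *Met*, the hepatocyte growth factor receptor, differed by −0.72 (adjusted p = 1.01e-07), from 355, 347 and 349 TPM to 203.5, 216 and 218 TPM. *Erbb3*, a neuregulin receptor of the neural crest, was higher in DKO cells by 0.82 (adjusted p = 6.98e-05). *Snai2* (0.53, adjusted p = 0.00186) and *Mc1r*, the melanocortin receptor (0.22, adjusted p = 0.0373), were also higher. *Sox10* (−0.35, adjusted p = 0.00242), *Tfap2a* (−0.20, 0.0222) and *Pax3* (−0.13, 0.0241), factors that act with or upstream of MITF, were lower. With IFNγ 4 genes of the list were higher and 4 lower, against 43.3% of all genes called. *Usf1* was newly among the higher ones (0.24, adjusted p = 0.00441), while *Sox10* (−0.13, 0.192) and *Tfap2a* (−0.12, 0.135) did not pass.

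The second list holds 30 genes of melanosome biogenesis and transport, of which 29 were tested. In untreated DKO cells 15 fell and 2 rose, against 19.4% of all genes tested called lower and 17.0% called higher, with a median log2 difference of −0.16 and of −0.01 over all genes. The largest difference was in *Slc7a11*, the cystine transporter that feeds pheomelanin synthesis, at −1.60 (adjusted p = 2.27e-06), with 20.9 to 29.9 TPM in NTC cells and 6.73 to 8.91 TPM in DKO cells. *Bace2*, the protease that processes PMEL, differed by −0.70 (adjusted p = 5.02e-08), and the GTPases *Rab38* (−0.70, 2.36e-08) and *Rab32* (−0.57, 8.12e-06), which bring the enzymes to the melanosome, were lower too. *Rab27a*, which ties melanosomes to actin motors, differed by −0.49 (adjusted p = 2.27e-06) and its adaptor *Mlph* by −0.26 (adjusted p = 0.000501). The other genes called lower were *Hps3* (−0.42), *Bloc1s6* (−0.35), *Hps1* (−0.31), *Hps4* (−0.26), *Lyst* (−0.25), *Dtnbp1* (−0.24), *Ap3b1* (−0.17), *Gpnmb* (−0.16) and *Cd63* (−0.13), many of which sort cargo to the melanosome. *Mreg* (0.33, adjusted p = 0.00663) and the copper pump *Atp7a* (0.19, adjusted p = 0.0172) were higher. With IFNγ 15 fell and 1, *Mfsd12* (0.55, adjusted p = 0.00444), rose, against 23.9% of all genes tested called lower and 19.5% called higher. These were not all the same genes as untreated. *Gpnmb* (−0.05, adjusted p = 0.229), *Hps1* (−0.08, 0.478) and *Hps4* (−0.15, 0.073) were no longer called lower. *Myo5a* (−0.12, 0.0343), *Ap3m1* (−0.27, 0.0351) and *Bloc1s1* (−0.20, 0.049) were. *Mreg* (0.19, 0.074) and *Atp7a* (0.06, 0.401) were no longer called higher.

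**Figure D4:**
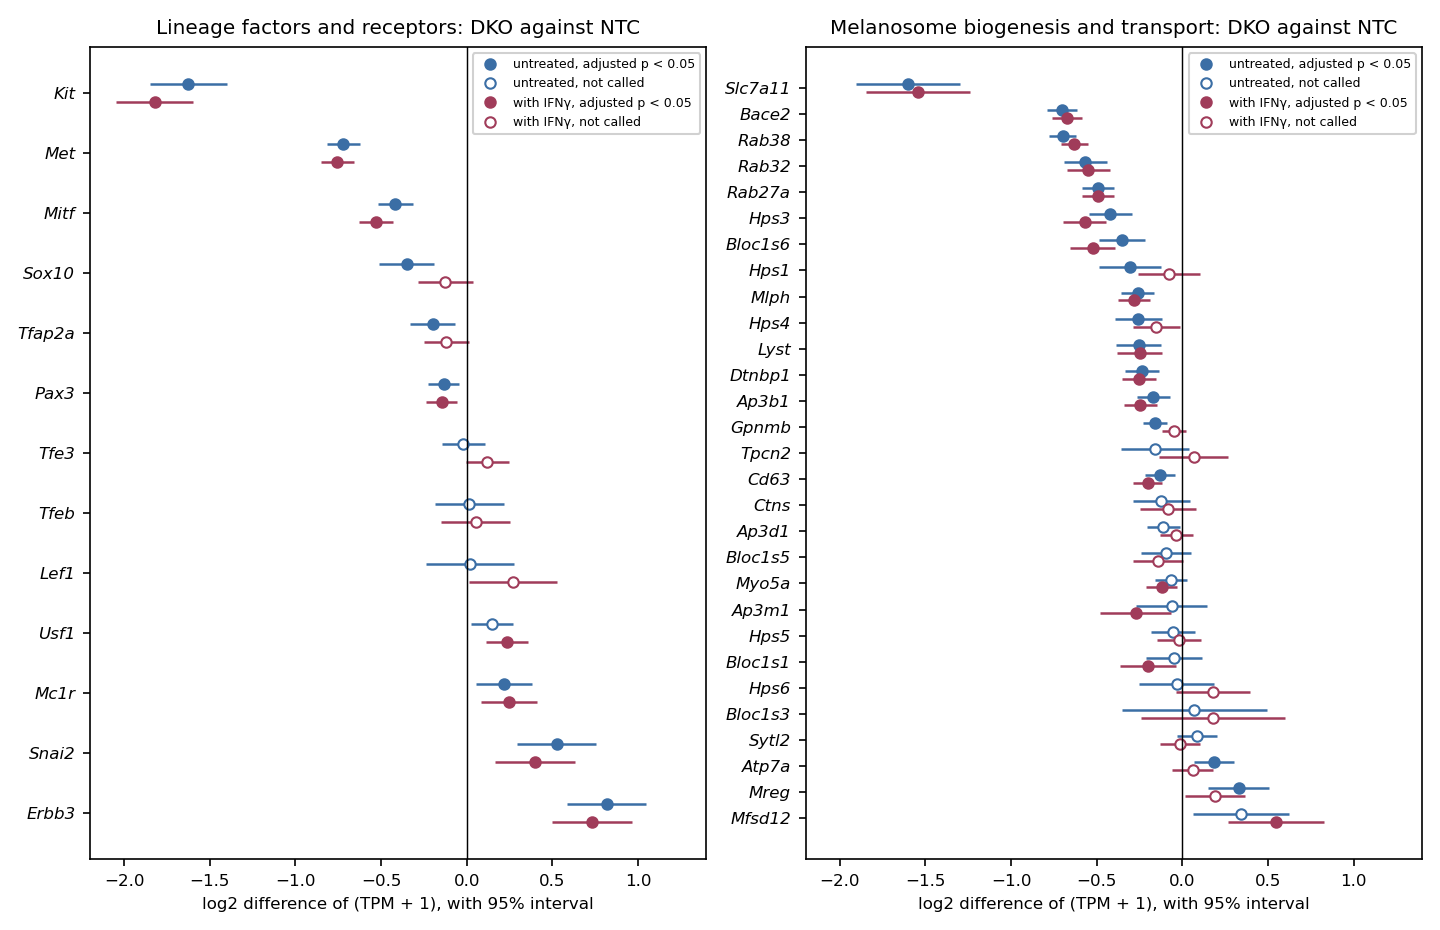
Log2 differences of TPM + 1, DKO minus NTC, with 95% intervals for the tested lineage genes (left, 13) and the tested genes of melanosome biogenesis and transport (right, 29), untreated and with IFNγ, ordered by the untreated difference. Filled circles passed an adjusted p of 0.05. On the left the untreated differences run from *Kit* at −1.63 to *Erbb3* at 0.82. On the right the untreated differences run from *Slc7a11* at −1.60 to *Mfsd12* at 0.34.

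IFNγ was compared in these lists as well. In NTC cells 2 of 13 lineage genes rose, *Mitf* and *Met* (0.30, adjusted p = 0.00175), against 7.31% of all genes tested. *Sox10* fell (−0.25, adjusted p = 0.0439), 1 of 13 against 4.78% of all genes tested called lower. Of the 29 melanosome genes 5 rose there, against 7.31% of all genes tested, namely *Rab27a* (0.20, adjusted p = 0.0145), *Cd63* (0.19, 0.0152), *Atp7a* (0.23, 0.0225), *Bace2* (0.15, 0.0313) and *Hps3* (0.19, 0.0463). In DKO cells 1 of 13 lineage genes rose, *Met* (0.27, adjusted p = 0.00807), against 0.677% of all genes tested. No melanosome gene passed there in the limma fit, with 8 of 29 at an unadjusted p below 0.05 against 1119 of all 11663. The difference of the response passed the limma threshold in none of the tested genes of either list, with 0 lineage genes and 1 melanosome gene at an unadjusted p below 0.05, against 1340 of all 11663.

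The pigment genes also varied together over the 12 libraries, which differ in genotype and treatment. Over their 45 pairs, Pearson's r of log2(TPM + 1) had a median of 0.974 and ran from 0.701 to 0.992. After the mean of each condition was removed the median was 0.167 and the range −0.609 to 0.959, with 32 pairs above 0, and *Tyr* with *Tyrp1* was highest. These are descriptions over libraries that share genotype and scaling. The pigment genes were lower in DKO libraries at either treatment, and the r over the 12 libraries largely restate that difference. By the rule of the highest r over the 12 libraries outside the set, *Tyrp1* lay nearest to *Rab27a* (0.995), *Met* (0.994) and *Brca1* (0.992), and *Dct* to *Asns* (0.996), *Atf4* (0.996) and *Gjb2* (0.996). *Tyr* lay nearest to *Rictor* (0.996), *Slc38a2* (0.995) and *Spg21* (0.994), and *Mlana* to *Cited1* (0.993), *Psmc3* (0.993) and *Gjb2* (0.993). *Pmel* lay nearest to *Snrnp200*, *Rpn2* and *St3gal1* (0.986 each) and *Trpm1* to *St3gal1* (0.991), *Mgll* (0.989) and *App* (0.988). Among the transporters *Slc45a2* lay nearest to *Scpep1* (0.993), *Sort1* (0.990) and *Atp6v0a1* (0.990), *Slc24a5* to *Phf10* (0.994), *Stard7* (0.993) and *Atp6v0a1* (0.992), and *Oca2* to *Spg21* (0.992), *Zfyve9* (0.991) and *Rictor* (0.991). *Gpr143*, whose difference between genotypes was smallest, lay nearest to *Lats1* (0.969), *Ash1l* (0.965) and *Fam63b* (0.956).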

How the data were processed

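RNA-seq of B16-F10 Cas9 cells was taken from 1 deposited table of 12 libraries. Its values are TPM, which the authors made with RSEM 1.2.4, Bowtie and TopHat 20.8b on mm10 from poly(A)-selected, unstranded libraries. They are not whole numbers although the table is named for counts, scaling between libraries is not given in the sources used here, and TPM keep no depth.

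Samples were grouped by the labels, and the dose and duration of IFNγ come from the study's methods. Genes that reached 1 TPM in 3 or more libraries (11663 of 23022, all 10 pigment genes among them) were fitted as log2(TPM + 1) with limma 3.58.1 in R 4.3.3, with 1 mean for each of the 4 conditions and a variance prior that follows expression. The fold change of a low gene is understated on this scale. Benjamini-Hochberg adjustment covered all genes tested, with a threshold of 0.05, and intervals are 95%. The 5 comparisons were IFNγ within each genotype, the difference of these responses, and DKO against NTC at each treatment. Each of 12 libraries was left out in turn, and 8 other settings were tried: pseudocount 0.1, no filter, same-total scaling, median-ratio scaling, a replicate block, only the libraries compared, GC content and length trends removed (natural splines, 4 degrees of freedom, GENCODE M21 for 22251 genes) and one prior variance. The pigment sum was also divided by the listed genes without the 50 most abundant others. The fit was tested on simulated data.

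Members and lists were chosen with earlier results of these data known, and the M box was looked up after the promoters were read. Named are all members, *Mbnl1*, *Mbnl2*, genes of the lists, as far as they passed the threshold in a comparison, the 3 genes nearest to each member and, chosen after values were seen, *Cdk2* and *Myef2* for their overlap. Python 3.11.15, numpy 2.4.6, pandas 2.3.3 and matplotlib 3.10.9 were used. Splicing, flow cytometry and tumor data were not analysed here.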

Additional observations from a re-analysis of the deposited data

How the results depend on the processing

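The lower level of pigment genes in DKO cells held for 9 genes untreated and 10 with IFNγ in the 20 other settings of the gene-level fit, and *Gpr143* untreated gained its call in 5 of them. The IFNγ calls were less stable. In NTC cells, all genes called numbered 1411, and 897 without a filter, 598 with GC content and length trends removed, 737 with one prior variance and 317 to 2023 with 1 library left out. The 6 pigment genes called there became 3 with one prior variance and 0 to 6 with 1 library left out. In DKO cells the 2 pigment genes called became 1 with no filter, with median-ratio scaling, with only the libraries compared and with one prior variance, 4 with GC content and length trends removed, and 1 to 3 with 1 library left out. Genes called for a differing response numbered 4, and 10 with no filter and 0 to 7 with 1 library left out. Values that changed sign were not called: the IFNγ value of *Dct* in NTC cells (−0.0221 scaled to the same total, −0.0087 with median-ratio scaling, −0.1048 with trends removed, −0.0061 to 0.0342 with 1 library left out), and the response differences of *Tyr* (0.0046), *Mlana* (0.0067) and *Slc24a5* (0.0267) with trends removed, of *Tyrp1* (−0.0274 to 0.0432) and of *Oca2* (−0.0651 to 0.0632) with 1 library left out. The DKO over NTC ratio of summed pigment TPM moved from 0.660 to 0.683 untreated and from 0.671 to 0.713 with IFNγ when scaled to the same total, and to 0.683 and 0.707 without the 50 most abundant other genes. The causes were not tested.

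Replicate numbers showed no sign of pairing the libraries, which does not exclude a pairing. Deviations of same-numbered libraries correlated between −0.179 and 0.182 over 18 pairs, and those of different number between −0.219 and 0.213 over 36. Of 12 libraries, 2 correlated best with their own number. With the replicate block, 1118 genes were called for IFNγ in NTC cells, 75 in DKO cells, 2 for the difference of the responses, 4063 for DKO against NTC untreated and 4899 with IFNγ. The block left 1 pigment gene called for IFNγ in DKO cells, since *Pmel* lost its call (adjusted p = 0.0963), and changed no other pigment call.

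With 3 libraries per group and no depth in TPM, changes in *Oca2*, the lowest gene of the set, are the least precise.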
